A study of Homo sapiens with 8 samples.

Results

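The 10 genes described here control the first gap phase of the cell cycle: the D cyclins CCND1, CCND2 and CCND3, their partner kinases CDK4 and CDK6, the CIP/KIP inhibitors CDKN1A (p21), CDKN1B (p27) and CDKN1C (p57), and the INK4 inhibitors CDKN2C (p18) and CDKN2D (p19). They were chosen by name, with earlier results of these data known, and make up 10 of 19431 genes and 44 of 74209 transcripts. LNCaP-FGC is a human prostate carcinoma line of luminal type that depends on androgen. The cells were given I-CBP112 and A-485 together, A-485 alone, I-CBP112 alone, or DMSO, the solvent, and RNA was taken after 24 h. A-485 blocks the catalytic acetyltransferase site of the coactivators p300 and CBP, and I-CBP112 occupies their bromodomain, which binds acetylated lysine. The question was what blocking either site, or both at once, does to messenger RNA. Each of the 4 groups had 2 libraries. The sources used here give no doses, and they do not say whether the 2 libraries of a group came from separate cultures. The p-values below therefore set differences between groups against how much these libraries vary, and that variation may be technical.

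D cyclins carry growth signals into the cell cycle. Bound to CDK4 or CDK6, they phosphorylate the retinoblastoma protein RB1 and its relatives, which then release E2F transcription factors, and E2F switches on the genes of DNA replication. INK4 proteins bind the kinases CDK4 and CDK6 and keep D cyclins off them. CIP/KIP proteins bind cyclin-kinase complexes more widely. They inhibit CDK2 complexes and can also help to assemble cyclin D with CDK4.

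Levels are in scaled FPKM, the fragments per kilobase of transcript and per 1e+06 fragments, summed over the transcripts of a gene and rescaled so that the 8 libraries can be compared. By estimate, replicate 1 was the deeper, with 15.9 to 28.1 M fragments assigned to transcripts per library (M for 1e+06), against 4.44 to 13.5 M in replicate 2. Luminal markers were abundant, with all 9 of 9 past the filter on low values. Their sum was 1816 to 2446 scaled FPKM with both compounds, 2165 to 2510 with A-485, 3400 to 3579 with I-CBP112 and 4879 to 5897 with DMSO. KLK3 weighed most in the fall of this sum, with means of 50.8 with both compounds and 2135 with DMSO. KRT8 had means of 1089 and 992. Limma called 6 of the 9 lower with both compounds, against 7.44% of all genes, and 8 of 9 lay below 0. With A-485 it called 7 of 9 lower, against 3.33% of all genes. Of the basal markers 1 of 3 passed the filter, KRT5, at 14.2 scaled FPKM in I-CBP112 replicate 2 and 6.74 in DMSO replicate 2 and at most 1.66 in the 6 other libraries, while TP63 was listed at 0 in every library. The blood markers PTPRC, CD3E and HBB were likewise listed at 0. The fourth of that list, CD68, was at 5.88 and 3.97 scaled FPKM with both compounds, 5.70 and 2.14 with A-485, 2.02 and 2.64 with I-CBP112, and 1.91 and 1.45 with DMSO. Its log2 fold change with both compounds, 1.13 ± 0.36, passed with the replicate block only (limma, adjusted p = 0.0827, and adjusted p = 0.0475 with the block). Stromal markers summed to 19.1 to 31.1 scaled FPKM over the 8 libraries, and DES was listed at 0 in every library. Of these COL1A1 was at 11.6 and 9.60 scaled FPKM with both compounds, 9.18 and 9.99 with A-485, 6.11 and 5.93 with I-CBP112, and 3.46 and 3.53 with DMSO. COL1A1 rose with both compounds and with A-485, by log2 fold changes of 1.36 ± 0.18 and 1.23 ± 0.18 (limma, adjusted p = 0.00353 and adjusted p = 0.0121). Markers of dividing cells summed to 274 and 277 scaled FPKM with both compounds, 347 and 403 with A-485, 273 and 316 with I-CBP112, and 396 and 445 with DMSO. Of these 7 markers, 2 were called lower with both compounds (CDK1 and BIRC5), against 7.44% of all genes. With the replicate number fitted as a block 3 were called lower, against 12.3% of all genes. All 7 log2 fold changes lay below 0. The part of these markers in the results below was not tested. In RNA from whole cultures, less RNA per cell and fewer cells that make it cannot be told apart.

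In DMSO-treated cells the most abundant of the 10 messages was CDK4, with a mean of 553 scaled FPKM. CDKN1A followed at 259, CCND1 at 97.2, CCND3 at 67.0, CDKN1B at 48.2, CDKN2D at 18.4, CDKN2C at 16.3 and CDKN1C at 1.96. The ranges of CCND3 and CDKN1B overlapped between the 2 DMSO libraries, and so did those of CDKN2D and CDKN2C. By estimated fragments, which are not divided by transcript length, CDK4 and CDKN1A were closer. They had 10119 and 9609 in DMSO replicate 1, and 1739 and 1501 in DMSO replicate 2. CDK6 at 0.36 and CCND2 at 0.0055 were near the lower end of detection. In these cells CDK4 was thus the kinase, and CCND1 and CCND3 the D cyclins, whose messages were abundant. The 2 DMSO libraries stood apart for CDK4 (654 and 452 scaled FPKM), CDKN1A (319 and 199) and CCND3 (83.4 and 50.7), and close together for CCND1 (96.9 and 97.4).

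**Figure D1:**
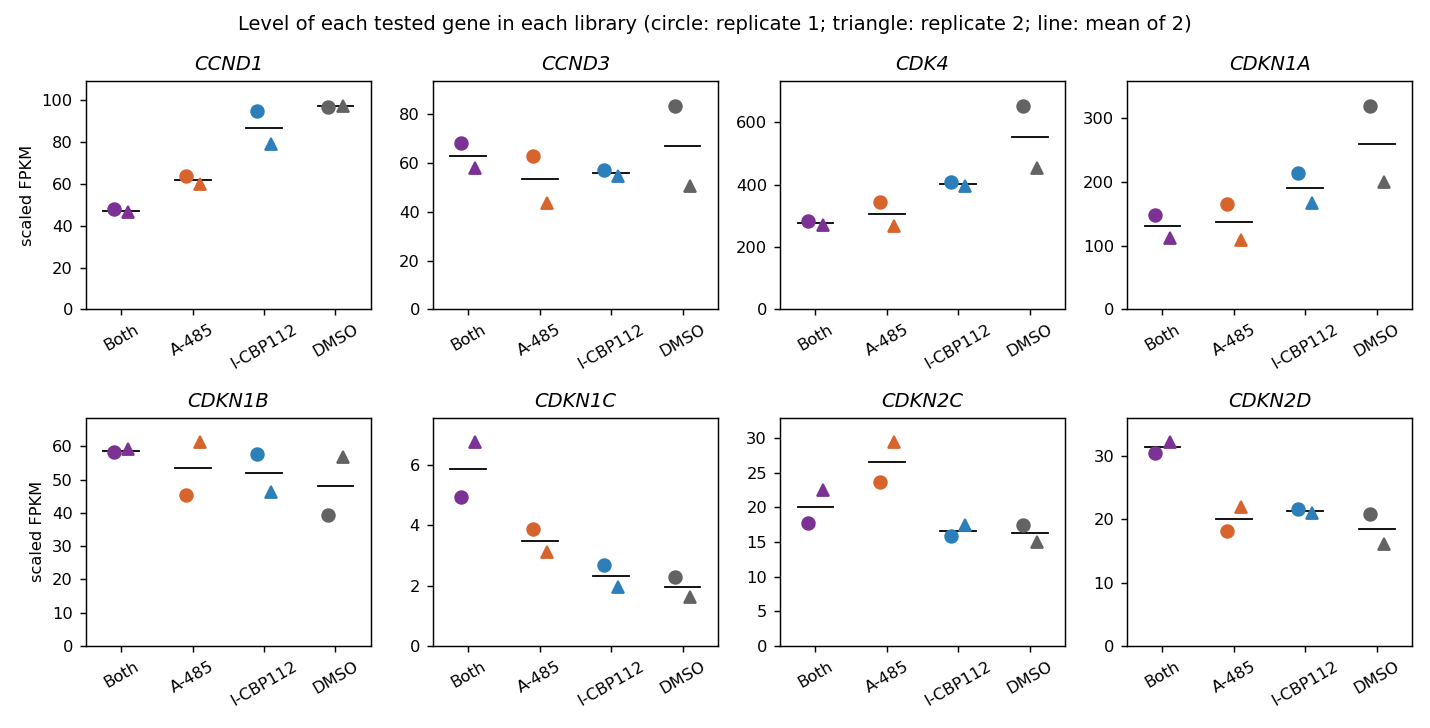
Level of each of the 8 tested genes in every library, in scaled FPKM on axes that start at 0, for both compounds (Both), A-485, I-CBP112 and DMSO. Circles are replicate 1, triangles replicate 2 and lines the mean of the 2 libraries; CCND1, CDK4 and CDKN1A are lower and CDKN1C is higher in both libraries with both compounds than in either DMSO library.

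With both compounds, messages for the cyclin-kinase pair CCND1 and CDK4 fell and the inhibitor messages CDKN1C and CDKN2D rose. The most abundant of the inhibitor members, CDKN1A, was lower too. Its log2 fold change was -0.96, against -0.97 for CDK4, but did not pass (limma, adjusted p = 0.0882). Of the 8 members that passed the filter on low values, limma called 4 at an adjusted p under 0.05, against 10.6% of all 11875 genes tested. The calls were 2 lower and 2 higher, where 7.44% of all genes were called lower and 3.17% higher. CCND2 and CDK6 did not pass the filter. In a fit with the replicate number as a block, 5 members were called, 3 lower with CDKN1A added and 2 higher, and 19.6% of all genes (12.3% lower, 7.33% higher). Without either library of the combination the 4 calls became 0, and without any 1 library of A-485 or I-CBP112 they became 2, CCND1 and CDKN1C, in fits with fewer degrees of freedom. With scaling to the total alone they became 2, CDKN1C and CDKN2D, and the log2 fold changes of CCND1 and CDK4 were -0.77 and -0.72 (limma, adjusted p = 0.0579 and adjusted p = 0.0816), where the median of all genes stood at 0.25.

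With A-485 alone limma called 0 of the 8 members, against 4.55% of all genes (3.33% lower, 1.22% higher). With the replicate block it called 4, with CCND1, CDK4 and CDKN1A lower and CDKN2C higher, against 13.6% of all genes (9.28% lower, 4.32% higher). With I-CBP112 alone 0 of the 8 members were called, without or with the block. Over all genes limma called 0% with I-CBP112 (0 genes, with 1310 at an unadjusted p under 0.05) and 0.168% with the block (20 genes), while limma on voom weights called 0. Groups did not overlap for 7 of the 8 members with both compounds, where 55.1% of all genes did not overlap. They did not overlap for 5 of 8 with A-485 and 3 of 8 with I-CBP112, against 52.7% and 37.3% of all genes.

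**Figure D2:**
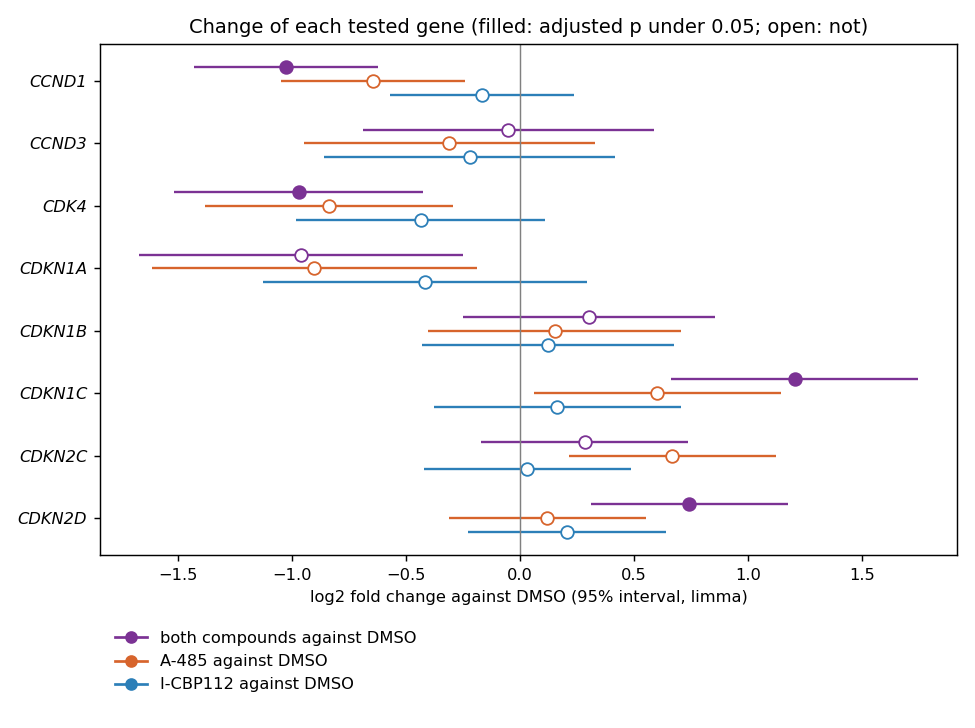
Log2 fold change against DMSO of the 8 tested genes with both compounds, A-485 and I-CBP112, drawn as points with 95% intervals from limma. Filled points passed an adjusted p of 0.05, which 4 genes did with both compounds and 0 did with either compound alone.

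CCND1, the D cyclin amplified or overexpressed in many carcinomas, was measured at 47.9 and 46.4 scaled FPKM with both compounds, against 96.9 and 97.4 with DMSO. The 2 libraries with both compounds lay close together and at about the same distance below DMSO. CCND1 fell, with a log2 fold change of -1.03 ± 0.18 (standard error, n = 2 per group; limma, adjusted p = 0.0111), and it lay at -1.0003 within replicate 1 and -1.05 within replicate 2. With A-485 alone its levels were 63.7 and 60.0 scaled FPKM, both below DMSO, a log2 fold change of -0.64 ± 0.18 that did not pass (limma, adjusted p = 0.0760) and passed with the replicate block (limma, adjusted p = 0.0252). With I-CBP112 alone the levels were 94.95 and 78.8 scaled FPKM, again below both DMSO libraries, and the log2 fold change was -0.17 ± 0.18 (limma, adjusted p = 0.756). Without replicate 1 of the combination the adjusted p of CCND1 with both compounds was 0.0809, and without replicate 2 it was 0.0867 (limma). CCND1 shares 497 of its 4830 exon bases with LTO1 on the opposite strand. LTO1 itself was at 8.73 to 13.5 scaled FPKM, and whether fragments were counted by strand is not given in the sources used here.

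CCND3, the D cyclin that is prominent in lymphoid cells and is expressed widely, passed the test in no comparison. It was at 68.3 and 57.7 scaled FPKM with both compounds, 63.0 and 43.4 with A-485, 56.8 and 54.5 with I-CBP112, and 83.4 and 50.7 with DMSO. Every treated group lay within or overlapped the DMSO range. With both compounds the log2 fold change was -0.05 ± 0.28, with a 95% interval of -0.69 to 0.59 (limma, adjusted p = 0.927). The ratio of CCND1 to CCND3 within a library was 0.702 and 0.804 with both compounds, 1.01 and 1.38 with A-485, 1.67 and 1.44 with I-CBP112, and 1.16 and 1.92 with DMSO. CCND3 was the more abundant of the pair in both libraries of the combination and in no other library. CCND2, the D cyclin of ovary and lymphoid cells among others, rested on at most 2 estimated fragments in each of the 8 libraries. That is below the 3 fragments that a count of 0 allows, equal to 0.0196 to 0.145 scaled FPKM by library for counting error only, so no difference was detectable at this depth.

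CDK4, the kinase that D cyclins activate, fell with both compounds. Its levels were 284 and 269 scaled FPKM with both compounds, against 654 and 452 with DMSO. The log2 fold change was -0.97 ± 0.24 (n = 2 per group; limma, adjusted p = 0.0383), with -1.20 within replicate 1 and -0.75 within replicate 2. In 7 of the 8 fits that each left out 1 library the adjusted p rose above 0.05, to 0.184 at most, with log2 fold changes between -1.25 and -0.71 over the 8 (limma). The call was kept without DMSO replicate 2, and it was lost without a filter on low values (limma, adjusted p = 0.0613). With A-485 alone CDK4 was at 345 and 267 scaled FPKM, below both DMSO libraries, a log2 fold change of -0.84 ± 0.24 (limma, adjusted p = 0.0806, and adjusted p = 0.0234 with the replicate block). With I-CBP112 alone it was at 409 and 395 scaled FPKM, again below both DMSO libraries, a log2 fold change of -0.44 ± 0.24 (limma, adjusted p = 0.541). CDK4 overlaps TSPAN31 on the opposite strand over 1369 of its 3168 exon bases, and TSPAN31 was measured at 31.4 to 63.4 scaled FPKM. CDK6, the related kinase, was at 0.169 and 0.142 scaled FPKM with both compounds, 0.0968 and 0.168 with A-485, 0.0984 and 0.237 with I-CBP112, and 0.385 and 0.339 with DMSO. Every treated library lay below both DMSO libraries, but on 4 to 30 estimated fragments per library, and CDK6 was not tested.

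CDKN1A, which encodes the stress-induced inhibitor p21, was lower in every library with both compounds than in either DMSO library. Its levels were 148 and 112.3 scaled FPKM with both compounds, 166 and 109 with A-485, 213 and 166 with I-CBP112, and 319 and 199 with DMSO. In all 4 groups replicate 1 was the higher library. With both compounds the log2 fold change was -0.96 ± 0.31, with -1.10 within replicate 1 and -0.82 within replicate 2, and it did not pass (n = 2 per group; limma, adjusted p = 0.0882). With the replicate block it passed (limma, adjusted p = 0.00596). With A-485 alone the log2 fold change was -0.90 ± 0.31 (limma, adjusted p = 0.122, and adjusted p = 0.0134 with the block). With I-CBP112 alone the groups overlapped and the log2 fold change was -0.42 ± 0.31 (limma, adjusted p = 0.652). Without DMSO replicate 2 the adjusted p with both compounds was 0.0492 (limma).

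CDKN1B encodes p27, an inhibitor of CDK2 complexes that is largely controlled through protein turnover. Its message was at 58.3 and 59.1 scaled FPKM with both compounds, 45.5 and 61.2 with A-485, 57.6 and 46.3 with I-CBP112, and 39.5 and 56.8 with DMSO. With both compounds the log2 fold change was 0.30 ± 0.24, with a 95% interval of -0.25 to 0.86 (limma, adjusted p = 0.450). No comparison called it. The ratio of CDKN1A to CDKN1B was 2.54 and 1.90 with both compounds, 3.64 and 1.78 with A-485, 3.70 and 3.59 with I-CBP112, and 8.09 and 3.49 with DMSO. Both ratios with the combination lay below both with DMSO.

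CDKN1C, which encodes p57, the CIP/KIP inhibitor from an imprinted locus, rose with both compounds. It was at 4.95 and 6.75 scaled FPKM with both compounds, 3.88 and 3.10 with A-485, 2.69 and 1.96 with I-CBP112, and 2.29 and 1.64 with DMSO. Both A-485 libraries lay between those of the combination and those of DMSO, while I-CBP112 overlapped DMSO. The log2 fold change with both compounds was 1.20 ± 0.24, with 0.86 within replicate 1 and 1.55 within replicate 2 (n = 2 per group; limma, adjusted p = 0.0186). With A-485 it was 0.60 ± 0.24 (limma, adjusted p = 0.160), and with I-CBP112 0.16 ± 0.24 (limma, adjusted p = 0.832). The values rest on 7 to 154 estimated fragments, with 7 in DMSO replicate 2 and 9 in I-CBP112 replicate 2, and the pseudocount of 1 understates the change of a gene this low. Leaving out either library of the combination or DMSO replicate 2 ended the call of CDKN1C, with an adjusted p of 0.0637, 0.139 and 0.0541 (limma), with log2 fold changes of 1.39, 1.02 and 1.04.

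Of the INK4 inhibitors, CDKN2D rose with both compounds and CDKN2C did not pass there. CDKN2D, which encodes p19, was at 30.4 and 32.1 scaled FPKM with both compounds, 18.2 and 21.9 with A-485, 21.5 and 21.0 with I-CBP112, and 20.8 and 16.0 with DMSO. Both libraries of the combination lay above all 6 others. CDKN2D rose with both compounds by a log2 fold change of 0.74 ± 0.19, with 0.53 within replicate 1 and 0.96 within replicate 2 (n = 2 per group; limma, adjusted p = 0.0438). In 7 of the 8 fits with 1 library left out its adjusted p rose above 0.05, to 0.200 at most, and the call was kept without DMSO replicate 1. It was also lost without a filter on low values and with an untrended spread (limma, adjusted p = 0.0594 and adjusted p = 0.0524). With A-485 its log2 fold change was 0.12 ± 0.19 and with I-CBP112 0.21 ± 0.19 (limma, adjusted p = 0.723 and adjusted p = 0.712).

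CDKN2C, which encodes p18, was at 17.7 and 22.5 scaled FPKM with both compounds, 23.6 and 29.4 with A-485, 15.8 and 17.4 with I-CBP112, and 17.5 and 15.1 with DMSO. Both A-485 libraries lay above the 6 other libraries. The log2 fold change with A-485 was 0.67 ± 0.20 (limma, adjusted p = 0.0890), with 0.42 within replicate 1 and 0.92 within replicate 2, and it passed with the replicate block (limma, adjusted p = 0.0447). With both compounds it was 0.28 ± 0.20 (limma, adjusted p = 0.390), and with I-CBP112 0.03 ± 0.20 (limma, adjusted p = 0.972). The ratio of CDKN2D to CDKN2C was 1.72 and 1.43 with both compounds, 0.769 and 0.746 with A-485, 1.36 and 1.20 with I-CBP112, and 1.19 and 1.06 with DMSO. A-485 alone was the one group in which CDKN2C exceeded CDKN2D in both libraries.

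Ratios taken within a library do not depend on how libraries are scaled. The INK4 messages CDKN2C and CDKN2D, summed over the sum of their targets CDK4 and CDK6, stood at 0.169 and 0.203 with both compounds, 0.121 and 0.192 with A-485, 0.0912 and 0.0972 with I-CBP112, and 0.0585 and 0.0686 with DMSO. Every treated library was above both DMSO libraries, and the combination and A-485 overlapped. The 5 inhibitor messages summed over the 3 D cyclins gave ratios of 2.23 and 2.24 with both compounds, 2.03 and 2.17 with A-485, 2.05 and 1.90 with I-CBP112, and 2.21 and 1.95 with DMSO. This ratio differed little between groups, with lower CDKN1A and lower CCND1 on its opposite sides. These ratios were given no test.

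**Figure D3:**
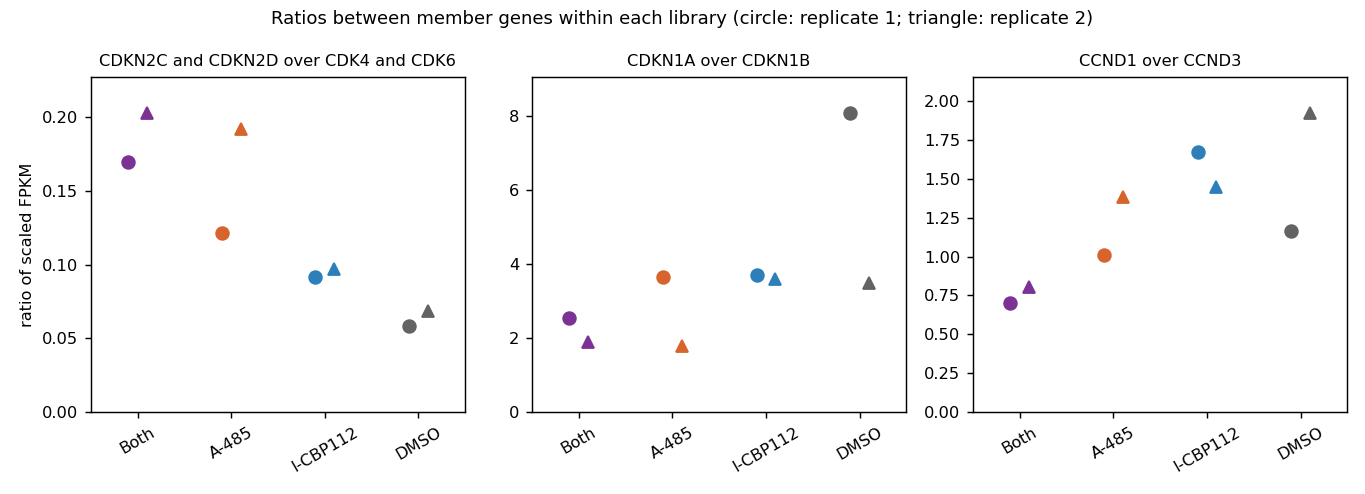
Ratios of scaled FPKM within each library for both compounds (Both), A-485, I-CBP112 and DMSO, with circles for replicate 1 and triangles for replicate 2, in 3 panels on axes that start at 0. The ratio of CDKN2C and CDKN2D to CDK4 and CDK6 is 0.169 and 0.203 with both compounds against 0.0585 and 0.0686 with DMSO, and CCND1 over CCND3 is below 1 in the 2 libraries with both compounds.

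Set against each compound alone, the combination differed in 1 member by the test. CCND1 was lower with both compounds than with I-CBP112 by a log2 difference of -0.86 ± 0.18 (n = 2 per group; limma, adjusted p = 0.0494), a comparison in which 2.29% of all genes were called and 2.01% were lower. It passed with the replicate block (limma, adjusted p = 0.0148), where 4.3% of all genes were lower. The call was lost in 7 of the 8 fits that left out 1 library, to an adjusted p of 0.296 at most, and was kept without DMSO replicate 2. It was lost without a filter, with an untrended spread and with scaling to the total alone (limma, adjusted p = 0.0609, adjusted p = 0.0538 and adjusted p = 0.152). CDKN1C stood 1.04 ± 0.24 higher on the log2 scale with both compounds than with I-CBP112 and did not pass (limma, adjusted p = 0.0710). Between both compounds and A-485 limma called 0 of 8 members, against 0.825% of all genes. The log2 differences there were -0.38 ± 0.18 for CCND1, 0.60 ± 0.24 for CDKN1C, -0.38 ± 0.20 for CDKN2C and 0.62 ± 0.19 for CDKN2D, with adjusted p from 0.235 to 0.484 (limma). Between A-485 and I-CBP112 limma also called 0 members, against 0.859% of all genes, with log2 differences of -0.48 ± 0.18 for CCND1 and 0.64 ± 0.20 for CDKN2C (limma, adjusted p = 0.276 and adjusted p = 0.207).

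The interaction asks whether the log2 change with both compounds differs from the sum of the changes with each. Limma called 0 of the 8 members and 0% of all genes (0 genes, with 1055 at an unadjusted p under 0.05), 10 genes with the block and 33 with voom weights. For CCND1 the interaction was -0.22 ± 0.25 with a 95% interval of -0.79 to 0.35 (limma, adjusted p = 0.814). For CDKN1C it was 0.44 ± 0.33, with an interval of -0.33 to 1.21, and for CDKN2D 0.42 ± 0.27, with an interval of -0.20 to 1.03. CDKN2C had -0.42 ± 0.28, with an interval of -1.06 to 0.23. These intervals hold both no departure from additivity and departures of up to 1.21 on the log2 scale.

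The transcript values divide the fragments of a gene among overlapping transcripts and are less certain than the sums. Of the 44 transcripts 27 passed the filter, and limma called 0 of them in each comparison with DMSO, without or with the replicate block. Over all 31826 transcripts tested it called 0.346% with both compounds, 0% with A-485 and 0.022% with I-CBP112. CCND1 was mostly CCND1-201, with 5 exons and 885 coding bases, which held at least 81.8% of the gene's scaled FPKM in every library. Its log2 fold change with both compounds was -1.01 ± 0.15 (limma, adjusted p = 0.0789). CDK4-202, with 333 coding bases, held 37.0% to 44.2% of the CDK4 sum. CDK4-203, with 624 coding bases, held 20.3% to 31.3%, with a log2 fold change of -1.39 ± 0.22 with both compounds, against -0.91 ± 0.20 for CDK4-202 (limma, adjusted p = 0.0918 and adjusted p = 0.187). CDK4-211 and CDK4-214 varied more, with shares of 1.03% to 15.9% and of at most 18.0%. The listed CDK4 transcripts differ in length. The longest, CDK4-201 at 2076 bases, held 1.04% to 3.06% of the CDK4 sum by library and is named for its length. Its log2 fold change with both compounds was -0.93 ± 0.56 (limma, adjusted p = 0.635). Nearly all of the CDK4 sum thus lay on shorter listed transcripts, and those named for their share have 333 to 624 coding bases. A sum of FPKM over the CDK4 transcripts therefore also depends on how fragments were divided among them.

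The second CCND1 transcript, CCND1-203, held at most 18.2% of its gene in any library. CDKN1A-201 held at least 78.6% of CDKN1A, and CDKN1A-202 held 18.5% in replicate 1 with both compounds and at most 2.42% in the 7 other libraries. CDKN1B was divided between CDKN1B-201 (55.5% to 86.1%) and CDKN1B-202 (5.15% to 37.5%), and CDKN2C between CDKN2C-203 (57.2% and more) and CDKN2C-202 (at most 42.8%). CDKN2D-201 held 58.8% and 69.1% of CDKN2D with both compounds and 51.2% and 58.5% with DMSO, with CDKN2D-202 making up the rest. Their log2 fold changes with both compounds were 0.93 ± 0.28 and 0.40 ± 0.34 (limma, adjusted p = 0.306 and adjusted p = 0.749). The low gene CDKN1C was split among CDKN1C-201, CDKN1C-202 and CDKN1C-204 without a common pattern within groups, and in DMSO replicate 2 nearly all of it was CDKN1C-201. CDK6-201 and CDK6-202 divided the few fragments of CDK6, and CCND2-201 held those of CCND2.

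The transcripts of CCND3 held shares of the gene that differed between libraries. CCND3-203, with 876 coding bases, held 75.5% and 74.1% of the gene with both compounds, 56.8% and 51.6% with A-485, 57.9% and 32.1% with I-CBP112, and 45.9% and 35.8% with DMSO. Its share was higher in both libraries of the combination than in any other library. CCND3-207, with 354 coding bases, held 5.65% and 4.73% with both compounds, 12.1% and 6.06% with A-485, 22.5% and 25.9% with I-CBP112, and 15.1% and 27.6% with DMSO. For CCND3-204, with 660 coding bases, the share was 15.4% and 17.2% with both compounds, 24.9% and 42.4% with A-485, 16.6% and 41.9% with I-CBP112, and 36.1% and 35.04% with DMSO. None of the levels passed the test with both compounds: the log2 fold changes were 0.80 ± 0.46 for CCND3-203, -1.11 ± 0.44 for CCND3-204 and -1.75 ± 0.43 for CCND3-207 (n = 2 per group; limma, adjusted p = 0.616, adjusted p = 0.432 and adjusted p = 0.224). The shares themselves were given no test.

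**Figure D4:**
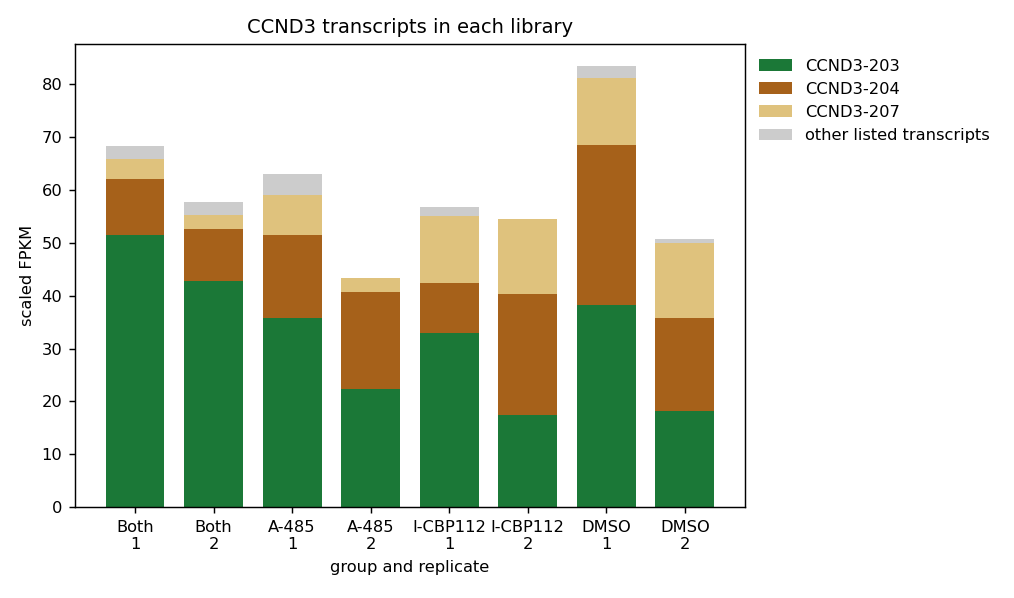
Stacked scaled FPKM of the named CCND3 transcripts and of the gene's other listed transcripts, with 1 bar per library. CCND3-203 makes up 75.5% and 74.1% of the bars with both compounds (Both) and 45.9% and 35.8% of those with DMSO.

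CDK4-209 was singled out after its values were seen. It was at 0.0216 and 0.00183 scaled FPKM with both compounds, 0.327 and 21.0 with A-485, 42.1 and 41.0 with I-CBP112, and 0.00844 and 0.00991 with DMSO. It held 10.3% and 10.4% of CDK4 in the I-CBP112 libraries, with a log2 fold change against DMSO of 5.40 ± 1.20 that did not pass (limma, adjusted p = 0.428). A-485 was the group in which its 2 libraries were farthest apart.

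Promoters are shown for 3 tested members of different roles, the kinase CDK4, the CIP/KIP inhibitor CDKN1A and the INK4 inhibitor CDKN2D. CDKN1A did not pass with both compounds (limma, adjusted p = 0.0882). The called members CCND1 and CDKN1C had no promoter entry, and CCND3, called in no comparison, is not shown. Each run is the 250 bases before the gene's start in RefSeq, build GRCh38.p14, read 5′ to 3′ on the strand of the gene. Of the 10 genes 7 had an entry, without CCND1, CCND2 and CDKN1C. Capitals mark matches on either strand to the E-box CACGTG, which MYC and its relatives bind, to the GC box GGGCGG, to CCAAT, to TATAAA, to TGACGTCA and its core TGACG, and to the E2F-type motifs TTTGGCGC, TTTCGCGC, TTTCCCGC and TTTGCCGC. TGACG lies within TGACGTCA, and matches to a motif may overlap each other.
CDK4, chr12:57752311-57752560, minus strand: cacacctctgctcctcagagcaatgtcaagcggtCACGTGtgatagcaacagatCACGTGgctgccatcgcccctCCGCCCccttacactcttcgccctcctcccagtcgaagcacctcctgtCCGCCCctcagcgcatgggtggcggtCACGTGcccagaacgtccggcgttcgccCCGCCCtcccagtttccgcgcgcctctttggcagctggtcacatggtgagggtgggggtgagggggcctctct
CDKN1A, chr6:36678464-36678713, plus strand: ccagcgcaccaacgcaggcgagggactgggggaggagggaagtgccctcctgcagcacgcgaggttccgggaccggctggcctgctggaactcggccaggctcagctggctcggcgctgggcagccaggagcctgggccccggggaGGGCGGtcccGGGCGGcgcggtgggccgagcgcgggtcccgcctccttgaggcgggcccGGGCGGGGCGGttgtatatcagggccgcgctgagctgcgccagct
CDKN2D, chr19:10568980-10569229, minus strand: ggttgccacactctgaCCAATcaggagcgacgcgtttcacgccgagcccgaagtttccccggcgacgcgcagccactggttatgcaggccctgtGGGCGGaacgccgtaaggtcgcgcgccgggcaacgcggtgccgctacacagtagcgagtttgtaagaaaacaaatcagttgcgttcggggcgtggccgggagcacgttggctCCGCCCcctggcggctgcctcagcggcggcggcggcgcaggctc
The CDK4 window held 3 E-boxes and 3 GC boxes. Of the 6 other promoters with an entry CDKN2C held 1 E-box, and CCND3, CDK6, CDKN1A, CDKN1B and CDKN2D held 0. The named transcripts of CCND3 start 108509 to 109631 bases downstream of the gene's most upstream listed start. Those of CDKN2C start 7950 and 9199 bases downstream of theirs. For the genes shown, CDK4-214 starts at 0, and CDK4-202, CDK4-203 and CDK4-211 start 3566, 3691 and 4136 bases downstream. The named CDKN1A transcripts start 2198 and 2261 bases downstream, and those of CDKN2D 0 and 81. Whether a window lies before the start that these cells use was not tested. The CDKN1A window held 4 GC boxes, a pair of which overlap, and the CDKN2D window held 2 GC boxes and 1 CCAAT. Of 27305 promoters of this length 6.49% held an E-box, 42.3% a GC box and 33.0% a CCAAT. A match is a description of these letters and not of binding, which was not measured.

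Other genes of the same pathway were taken from lists by role. With both compounds, the genes that E2F drives in DNA replication fell most broadly: limma called 11 of 12 lower, where it called 7.44% of all genes lower. Their median log2 fold change was -1.95, against a median of 0.03 over all genes. The replication licensing factor CDC6 had a log2 fold change of -2.41 ± 0.28 (limma, adjusted p = 0.00218), and the helicase subunits MCM5 and MCM7 had -2.13 ± 0.20 and -2.13 ± 0.19 (limma, adjusted p = 0.000994 and adjusted p = 0.000759). With A-485 alone 2 of these 12 were called lower, against 3.33% of all genes, and 7 with the replicate block, against 9.28%. With I-CBP112 0 of 12 were called, as were 0% of all genes. The medians with A-485 and I-CBP112 were -0.75 and -0.58, with all 12 log2 fold changes below 0 in either case. Of the E2F and DP factors 4 of 10 were called lower with both compounds and 5 with the block, against 7.44% and 12.3% of all genes (median -0.76, with 9 of 10 below 0). E2F1 had a log2 fold change of -1.81 ± 0.39, E2F2 of -1.39 ± 0.21 and E2F5 of -0.96 ± 0.22 (limma, adjusted p = 0.0251, adjusted p = 0.00613 and adjusted p = 0.0310). E2F1 was at 15.2 and 11.9 scaled FPKM with both compounds, 35.02 and 23.0 with A-485, 30.6 and 19.2 with I-CBP112, and 73.4 and 33.8 with DMSO.

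Among the cyclins E and A with CDK2 and its activator, 2 of 5 tested genes were called lower with both compounds, against 7.44% of all genes (median -0.63, with 4 of 5 below 0). CDK2, the kinase of S phase entry, had a log2 fold change of -1.03 ± 0.18 and CDC25A, the phosphatase that activates it, -1.24 ± 0.21 (limma, adjusted p = 0.0127 and adjusted p = 0.0102). CCNA1 was listed at 0 in every library. Of the 3 pocket proteins (RB1 and its relatives) and the 3 subunits of the CDK-activating kinase 0 passed, with medians of -0.15 and -0.14. With the replicate block MNAT1 passed as higher and CCNH as lower, both subunits of that kinase. Of 13 genes in the turnover of cyclin D and p27, 1 was called lower, close to the 7.44% of all genes, and 2 with the block (DDB1 added). The 1 was CKS1B, a cofactor of the ligase that marks p27 for degradation, at -1.22 ± 0.28 (limma, adjusted p = 0.0317). At the other INK4 locus CDKN2B, which encodes p15, rose by a log2 fold change of 1.02 ± 0.26 (limma, adjusted p = 0.0460). CDKN2B was at 3.99 and 4.16 scaled FPKM with both compounds and 1.16 and 1.91 with DMSO, while CDKN2A next to it had 0.51 ± 0.25 and did not pass (limma, adjusted p = 0.235).

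Of 7 listed regulators of CDK inhibitor genes 1 was called lower with both compounds, MYC, against 7.44% of all genes, while 3 of 7 lay below 0 and the median log2 fold change was 0.12. With the block FOXO4 was also called, as higher. MYC, a transcription factor known to repress CDKN1A and to activate CDK4, was at 18.9 and 14.7 scaled FPKM with both compounds, 60.6 and 52.3 with A-485, 156.8 and 158.5 with I-CBP112, and 244 and 199 with DMSO. It fell, with a log2 fold change of -3.65 ± 0.20 with both compounds (limma, adjusted p = 0.000124) and was also called lower with A-485. With A-485 no E2F factor or cyclin E/A gene passed without the block, where 4.55% of all genes did. With I-CBP112 no gene of any of these lists passed, without or with the block, against 0% and 0.168% of all genes.

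**Figure D5:**
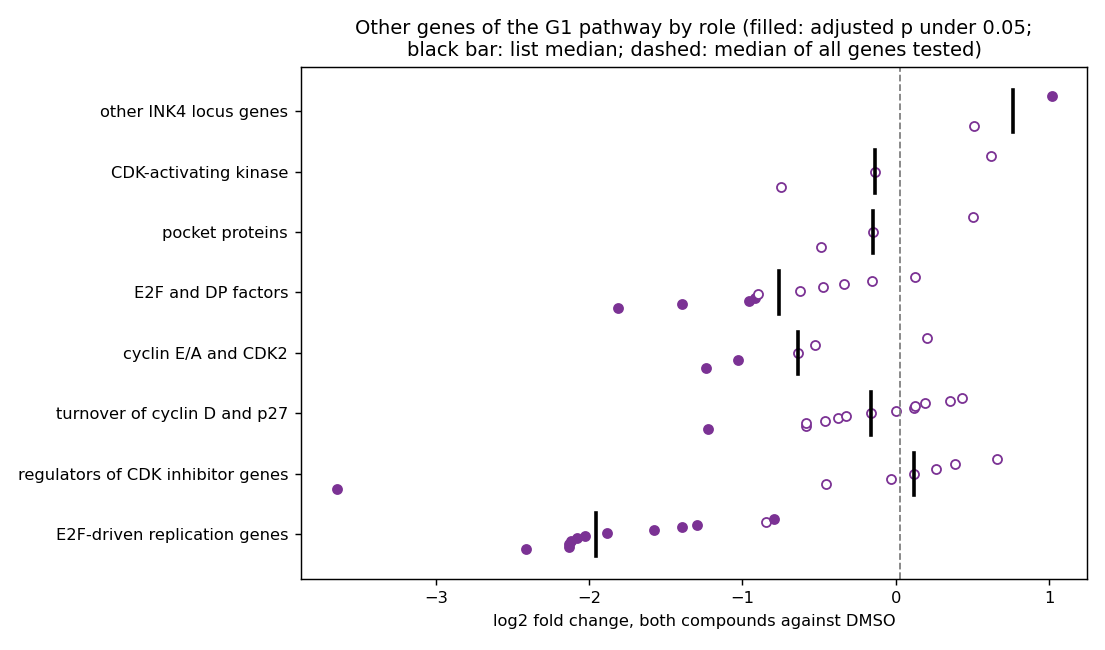
Log2 fold change with both compounds against DMSO of each tested gene of the pathway lists, with 1 point per gene, filled where the adjusted p (limma) is under 0.05. Black bars are list medians and the dashed line is the median of all genes tested, 0.03; the replication genes have the lowest median, -1.95.

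Over the 8 libraries the genes whose levels ran most like those of CCND1 were TBC1D4, ADAMTS1 and AMER1, with Pearson correlations of 0.994, 0.992 and 0.991. For CDK4 they were EIF5A, POLR3D and DHRS13, with correlations of 0.995, 0.992 and 0.988. For CDKN1C they were PCDHGA2, OSBPL2 and ACSF2 (0.975, 0.974 and 0.967), and for CDKN2D HLA-DRB1, MAGI2 and YWHAZ (0.968, 0.968 and 0.962). The 8 points of each correlation come from 4 groups and share their depth, so these values are descriptions of rank among 11875 genes.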

How the data were processed

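RNA-seq libraries of LNCaP-FGC cells were analysed from 1 table of 81591 transcripts. Per the submitters' processing notes, STAR, Cufflinks, DESeq, DESeq2, hg19 and GRCh37 were named, without versions or roles. Although the file name calls them counts, 78.3% of the deposited values were not whole and low values stepped with transcript length, so the authors' values were treated as FPKM, not counts, and no count model was used. Fragments per gene are estimates from that step (68.3% to 72.8% of low values were whole within 0.1 fragment). Transcripts were named by Ensembl identifier in GENCODE release 29 (74209, or 91.0%, matched, with 95.7% to 96.6% of the FPKM), which follows GRCh38 and served for names, lengths and exon overlap. They were summed to 19431 genes.

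Libraries were scaled to a total of 1e+06 and by a trimmed mean of log ratios (30% of ratios, 5% of levels trimmed). Genes with a scaled value of at least 1 in at least 2 libraries were tested, 11875 in all. Limma 3.58.1 in R 4.3.3 fitted the group means of log2(scaled FPKM + 1), with a robust spread that follows the mean level and 4 residual degrees of freedom. P-values were adjusted by Benjamini-Hochberg over all genes tested, at 0.05. Fold changes are on that scale. As deposited, the median gene stood 0.58 (both compounds), 0.35 (A-485) and 0.05 (I-CBP112) above DMSO on the log2 scale. After scaling it stood at 0.03, 0.00 and 0.00, and changes are relative to it. Replicate 1 held 90.7% to 99.2% of its normalizing fragments on listed transcripts and replicate 2 held 21.5% to 49.4%. Same-numbered libraries deviated together in all 6 pairs of groups (correlations 0.144 to 0.425), and their column names share a prefix, so the replicate number was fitted as a block in an alternative. Other alternatives were the pseudocount, the filter, the scaling, the spread estimate, each library left out, and, chosen after seeing the data, voom weights on estimated fragments.

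The members and lists were chosen with earlier results of these data known. All 10 members are named, transcripts that hold at least 10% of a gene in a group mean (at most 4 per gene), up to 3 called genes per pathway list with the largest change with both compounds, and the 3 genes most correlated with each called member. Some other genes of the pathway are not reported here.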

Additional observations from a re-analysis of the deposited data

How the results depend on the processing

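Of the comparisons with DMSO, members called with both compounds (4) became 2 without a filter and 2 with scaling to the total alone, and 0 to 3 with 1 library left out. With A-485 (0) they became 1 with total scaling, 4 with the replicate block, 3 with voom (CCND1, CDK4 and CDKN2C) and 0 to 1 with 1 library left out. Between both compounds and I-CBP112 (1) they became 0 without a filter, 0 with total scaling, 0 with an untrended spread and 0 to 1 with 1 library left out. Of the transcripts of the 10 genes 0 to 1 were called with I-CBP112 when 1 library was left out. The replicate block changed no other member count by over 1.5 times.

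Over all genes, calls with both compounds (1260) became 2326 with the block, 2398 with voom and 283 to 1306 with 1 library left out. With A-485 (540) they became 1615, 1829 and 52 to 1366, and with I-CBP112 (0) 20 with the block and 0 to 2 with 1 library left out. Between both compounds and I-CBP112 (272) there were 161 without a filter, 141 with total scaling, 678 with the block, 575 with voom and 44 to 346 with 1 library left out. Between both compounds and A-485 (98) there were 57 without a filter, 167 with the block, 273 with voom and 9 to 124. Between A-485 and I-CBP112 (102) there were 36 without a filter, 39 with total scaling, 301 with the block, 294 with voom and 6 to 121. The interaction (0) gave 4 with total scaling, 10 with the block and 33 with voom. The causes were not tested.

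Signs turned only for uncalled log2 fold changes. With total scaling CCND3 turned to 0.20 (both compounds against DMSO), 0.036 (A-485 against DMSO) and 0.11 (A-485 against I-CBP112), CDKN2D to 0.10 (A-485 against I-CBP112) and CDKN1B to -0.21 (interaction). With voom CCND3 turned to 0.19 (both compounds against DMSO) and 0.073 (A-485 against I-CBP112), and CDKN2D to -0.012 (A-485 against DMSO). With 1 library left out, CCND3 ranged from -0.42 to 0.30 (both compounds against DMSO), -0.67 to 0.038 (A-485 against DMSO), -0.59 to 0.13 (I-CBP112 against DMSO), -0.011 to 0.52 (both compounds against A-485) and -0.35 to 0.18 (A-485 against I-CBP112). CDKN1B ranged from -0.11 to 0.40 (A-485 against DMSO), -0.14 to 0.37 (I-CBP112 against DMSO), -0.063 to 0.36 (both compounds against A-485), -0.17 to 0.24 (A-485 against I-CBP112) and -0.22 to 0.30 (interaction). CDKN2D ranged from -0.069 to 0.29 (A-485 against DMSO) and -0.21 to 0.047 (A-485 against I-CBP112). Against DMSO with I-CBP112, CDKN1C ranged from -0.0022 to 0.32 and CDKN2C from -0.079 to 0.13. Between both compounds and A-485, CDK4 ranged from -0.32 to 0.047 and CDKN1A from -0.36 to 0.24. With 2 libraries per group and the shallower replicate 2, low members such as CDKN1C and CDK6 carry the largest counting error.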
